A study of Mus musculus with 16 samples.

Results

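The Dppa genes (developmental pluripotency associated) and the companion genes Utf1, L1td1, Tdh, Sall4, Tcl1 and Fbxo15 form a set of 10 mouse genes known for their expression in embryonic stem (ES) cells and the early embryo. They were taken by symbol from the deposited table, in which 24169 genes are represented by 33702 RefSeq transcripts. The 10 genes have 15 RefSeq transcripts, and 7 of the genes have a single one.

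ES cells keep the ability to form all tissues of the embryo through a network of transcription factors. Many further genes are active in the same cells and are switched off as differentiation proceeds, and the Dppa genes were named for such a pattern. They do not form 1 pathway. Dppa2 and Dppa4 are chromatin factors that act together, Dppa3 is a maternal factor that protects DNA from changes in methylation, Dppa5a and L1td1 bind RNA, Sall4 and Utf1 act on transcription and chromatin, and Tdh is an enzyme of threonine breakdown.

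The cells came from embryoid bodies (EBs), aggregates that the R1 line of mouse ES cells forms in suspension. All EBs had grown for 4 days in low binding dishes without Lif, the factor that maintains ES cells. Day 0 samples were taken then, before retinoic acid (RA) was added, and day 4 samples after 4 further days with 2 µM RA. Each day had 2 biological replicates, given here as RNA samples 1 and 2, and each of the 4 RNA samples was split into 4 vials that received spike-in mix 1, 2 or 3 or, as mix 4, no in vitro transcribed spike-in, which gave 16 libraries. Every vial also received a second set of spike-ins, the ERCC controls. These were ERCC mix 1 in the vials of mixes 1 and 3, and ERCC mix 2 in those of mixes 2 and 4. The vials are splits of the same RNA and not further replicates. Day 4 EBs are also older than those of day 0 and no untreated EBs of that age were analysed here, so RA and time in culture cannot be told apart.

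Levels are given in FPKM, the number of sequenced fragments scaled by transcript length and by library size, which allow genes of different length to be compared. The values of a library summed to between 411090 and 622888 FPKM, and between 20555 and 22156 transcripts were above 0. The number of fragments behind a value is not part of the table. The vials of mixes 3 and 4 of RNA sample 2 of day 0 stood apart from the other vials of the same RNA: relative to the vial of mix 1, GC-poor transcripts were higher and GC-rich transcripts lower in them. A weaker trend of the same direction was also present in the other vials of this RNA, as given below. The differences of the 10 genes are given with and without the 2 vials of mixes 3 and 4, and leaving these out does not remove the weaker trend. For other genes named below, a call that changes without them is given. Calls of further genes of the lists, not named, changed as well, so the counts of a list can depend on these vials. The labels call the cells embryonic stem cells. At day 0 Pou5f1, the central pluripotency factor, was at 62.2 FPKM, and the early mesoderm genes T and Mixl1 were at 67.0 and 39.4 FPKM.

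Sall4, a zinc finger transcription factor of pluripotent cells, has 3 RefSeq transcripts in the table, which differ at exon 2, the exon that codes for most of the zinc fingers. The joins between the exons are shown because the results below turn on which of these transcripts was estimated. The gene lies on the minus strand at chr2:168748332-168767943 of GRCm38 (mm10). Each line has 30 bases of the upstream and 30 of the downstream exon, 5′ to 3′, with the bases of exon 2 in capitals.
NM_175303 and NM_201395, exon 1 to exon 2: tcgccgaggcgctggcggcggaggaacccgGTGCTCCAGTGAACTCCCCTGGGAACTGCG
NM_175303, exon 2 to exon 3: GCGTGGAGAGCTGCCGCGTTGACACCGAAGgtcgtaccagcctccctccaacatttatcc
NM_201395, exon 2 to exon 3: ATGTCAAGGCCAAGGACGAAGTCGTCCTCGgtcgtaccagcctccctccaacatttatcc
NM_201396, exon 1 to exon 3: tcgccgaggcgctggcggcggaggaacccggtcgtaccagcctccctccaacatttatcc

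NM_175303 holds the whole exon 2, of 2367 bases with 59.1% GC, at chr2:168754434-168756800. NM_201395 holds its first 1035 bases, and NM_201396 has none of it. All 3 end in the same last exon of 2129 bases, whose GC content is 46.2%.

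Of the 10 genes, 8 fell from day 0 to day 4 and none rose. They were Dppa2, Dppa3, Dppa4, Dppa5a, Utf1, L1td1, Tdh and Sall4, and for each of them all 8 libraries of day 0 lay above all 8 libraries of day 4. The libraries of a day are splits of 2 RNA samples and not independent. The share of all genes whose libraries separate in this way was not worked out. Over all genes tested, 2972 were called lower (14.5%) and 3281 higher (16%) at day 4. The median difference of the 10 genes was -2.64 on the log2 scale, against -0.02 over 20496 genes. Tcl1 and Fbxo15 did not pass the test. Fewer cells that express a gene and less RNA of it per cell cannot be told apart in these samples. Differences were tested with limma on log2(FPKM + 0.1), 2 RNA samples a day, with Benjamini-Hochberg adjustment over all genes and an adjusted p of at most 0.05. The scale understates the change of genes near 0.

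**Figure D1:**
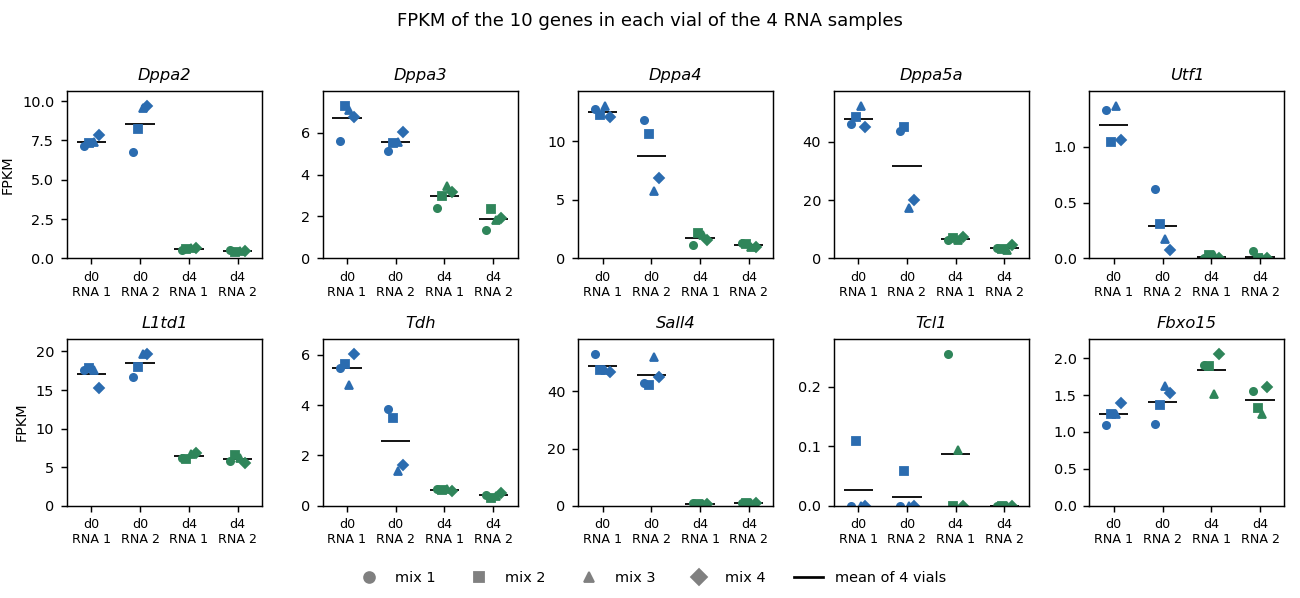
FPKM (y axis, linear, its own scale for each gene) of the 10 genes in each vial of RNA samples 1 and 2 of day 0 (blue) and day 4 (green). Symbols mark the spike-in mix and lines the mean of 4 vials. The points of the days do not overlap for 8 genes, a pattern whose share over all genes was not worked out. In RNA sample 2 of day 0 the vials of mixes 3 and 4 lie below those of mixes 1 and 2 for Dppa4, Dppa5a, Utf1 and Tdh.

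Dppa2 and Dppa4 are neighbours on the plus strand of chromosome 16, Dppa4 at chr16:48283733-48294237 and Dppa2 at chr16:48303908-48319723. Both code for proteins that bind DNA through a SAP domain, and together they keep developmental promoters accessible in ES cells. Dppa2 had 7.43 and 8.55 FPKM in RNA samples 1 and 2 of day 0, and 0.623 and 0.457 FPKM in those of day 4. The means were 7.99 ± 0.791 and 0.540 ± 0.117 FPKM (SD, n = 2), a ratio of 14.8. The log2 difference was -3.67 (SE 0.26, limma adjusted p = 0.00568), and -3.57 without the 2 vials. The spread between vials was small against this drop, at most 1.42-fold within an RNA sample.

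Dppa4 had 12.6 and 8.76 FPKM in the RNA samples of day 0, and 1.72 and 1.11 FPKM at day 4. Its mean thus went from 10.7 ± 2.69 to 1.42 ± 0.431 FPKM (SD, n = 2), and the log2 difference was -2.83 (SE 0.34, limma adjusted p = 0.0129) and -3.01 without the 2 vials. RNA sample 2 of day 0 was uneven for this gene: its vials of mixes 1 and 2 had 11.8 and 10.6 FPKM, close to RNA sample 1, and those of mixes 3 and 4 had 5.76 and 6.87 FPKM. Nearly all of its signal came from NM_028610. The second transcript, NM_001018002, was above 0 in 7 of 16 libraries.

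Dppa3, also known as Stella, is a maternal protein of the egg and early embryo that holds back Uhrf1 and with it the maintenance of DNA methylation. It lies at chr6:122626410-122630272. At day 0 its RNA samples had 6.67 and 5.55 FPKM, and at day 4 they had 2.99 and 1.87 FPKM. This was the smallest of the 8 drops, from 6.11 ± 0.798 to 2.43 ± 0.791 FPKM (SD, n = 2), with a log2 difference of -1.33 (SE 0.31, limma adjusted p = 0.0476) and -1.29 without the 2 vials. The call lies at the threshold, and it was kept in 10 of 24 alternative settings. The direction was the same in each of them.

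Dppa5a, an RNA binding protein with a KH domain, lies on chromosome 9 at chr9:78367052-78368177. In RNA sample 1 of day 0 its vials ranged from 45.0 to 52.2 FPKM. In RNA sample 2 the vials of mixes 1 and 2 had 43.9 and 45.1 FPKM, and those of mixes 3 and 4 had 17.4 and 19.9 FPKM. The former pair matched RNA sample 1 and the latter lay far below it. At day 4 the RNA samples had 6.76 and 3.57 FPKM, so that even the low vials of day 0 stayed above the highest vial of day 4, at 7.27 FPKM. The means were 39.8 ± 11.6 and 5.17 ± 2.26 FPKM (SD, n = 2), and the log2 difference was -2.96 (SE 0.41, limma adjusted p = 0.0174) and -3.21 without the 2 vials.

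L1td1 is an RNA binding protein derived from a LINE retrotransposon and lies at chr4:98726734-98738480. It showed the most even values of the set. Day 0 gave 17.0 and 18.5 FPKM in its RNA samples and day 4 gave 6.49 and 6.03 FPKM, and no RNA sample had vials more than 1.18-fold apart. The log2 difference was -1.49 (SE 0.16, limma adjusted p = 0.0106) and -1.44 without the 2 vials. It thus kept more of its day 0 level than most of the genes that fell, with 6.26 ± 0.329 FPKM left at day 4 (SD, n = 2).

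Tdh codes for threonine dehydrogenase, the enzyme through which mouse ES cells turn threonine into glycine and acetyl-CoA, and lies at chr14:63492347-63509092. RNA sample 1 of day 0 had 5.49 FPKM and RNA sample 2 had 2.58 FPKM, while those of day 4 had 0.639 and 0.415 FPKM. As for Dppa5a, the low mean of RNA sample 2 came from its vials of mixes 3 and 4, at 1.38 and 1.62 FPKM beside 3.84 and 3.47 FPKM for mixes 1 and 2. The log2 difference was -2.65 (SE 0.48, limma adjusted p = 0.0287) and -2.89 without the 2 vials.

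Utf1, a chromatin protein of ES cells, lies at chr7:139943789-139945112 and is the most GC-rich gene of the set, with 63.5% GC in its transcript. RNA sample 1 of day 0 had vials between 1.04 and 1.36 FPKM. In RNA sample 2 the vials of mixes 1, 2, 3 and 4 had 0.618, 0.305, 0.177 and 0.0770 FPKM, an 8.03-fold range within the same RNA. At day 4, RNA sample 1 was listed at 0 in 2 of 4 vials and otherwise at 0.0290 and 0.0280 FPKM, and RNA sample 2 was listed at 0 in 3 of 4 vials and at 0.0680 FPKM in the other. The gene was thus low at day 0 and near the end of the scale at day 4, and the highest vial of day 4 reached close to the lowest of day 0.

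Accordingly, the fitted difference of Utf1 depended on the value added before taking logs. It was -2.63 (SE 0.63, limma adjusted p = 0.0494) with 0.1 FPKM, -4.57 with 0.01 FPKM (adjusted p = 0.023) and -0.73 with 1 FPKM, where it was not called (adjusted p = 0.146). Without the 2 vials it was -2.88. Transcripts of like GC content (within 1 point, n = 99) had a median difference of -2.02 between the days, with 0.1 FPKM added. With that value Utf1 lay closer to its neighbours in GC content than the other 7 genes that fell. These neighbours have a mean of at least 1 FPKM, while Utf1 had 0.746 and 0.0156 FPKM. Its closeness to them thus also depends on the value added, and the part of GC content was not tested. After a correction of FPKM for GC content it was -1.77 (SE 0.12, limma adjusted p = 0.00148).

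Promoter sequences, from RefSeq on GRCm38.p6, were found for 3 of the 10 genes, Utf1, L1td1 and Tcl1. The sequences of Utf1 and L1td1 are shown because both genes fell and differ in their start regions. They run from 250 bases before to 50 bases after the annotated start, 5′ to 3′ on the plus strand, with each GC box (GGGCGG, or CCGCCC on the other strand) in capitals.
Utf1, chr7:139943606-139943905: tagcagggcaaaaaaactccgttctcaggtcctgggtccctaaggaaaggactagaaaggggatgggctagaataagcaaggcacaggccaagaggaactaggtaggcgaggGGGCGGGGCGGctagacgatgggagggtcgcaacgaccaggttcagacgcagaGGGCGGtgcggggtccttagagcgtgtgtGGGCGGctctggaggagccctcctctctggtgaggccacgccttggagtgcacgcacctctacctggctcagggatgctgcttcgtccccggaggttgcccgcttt
L1td1, chr4:98726504-98726803: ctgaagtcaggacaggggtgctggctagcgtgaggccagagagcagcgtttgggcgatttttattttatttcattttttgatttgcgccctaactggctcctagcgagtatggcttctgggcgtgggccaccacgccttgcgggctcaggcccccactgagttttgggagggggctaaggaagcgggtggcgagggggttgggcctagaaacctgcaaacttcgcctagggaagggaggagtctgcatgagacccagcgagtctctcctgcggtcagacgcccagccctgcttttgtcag

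The Utf1 window has 62.0% GC and 17 CG dinucleotides and the L1td1 window 58.7% GC and 14, against a median of 7 CG dinucleotides over 32851 promoters. GC boxes occur in the windows of Utf1 and Tcl1, where adjoining boxes can overlap, and in 35.7% of all promoters. On either strand, none of the 3 windows holds the octamer ATGCAAAT (1.74% of all promoters), the Sox site ACAATGG (3.66%), the retinoid receptor motif AGGTCA (16.3%) or the E box CACGTG (7.15%). These matches describe letters in the windows only.

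Sall4 showed the steepest drop of the set. Its RNA samples had 48.8 and 45.6 FPKM at day 0, summed over its transcripts, and 0.715 and 0.872 FPKM at day 4. The means were 47.2 ± 2.24 and 0.793 ± 0.111 FPKM (SD, n = 2), a ratio of 59.5, and the log2 difference was -5.73 (SE 0.19, limma adjusted p = 0.0046) and -5.68 without the 2 vials. The sum was stable across all 8 vials of day 0, from 42.4 to 53.2 FPKM, the vials that stood apart included.

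The split of this sum between the transcripts was not stable. In the 4 vials of RNA sample 1 of day 0, NM_175303, with the whole exon 2, took 98.2 to 98.7% of the Sall4 FPKM, and NM_201396, without exon 2, was listed at 0. In RNA sample 2, NM_201396 took 2.24% in the vial of mix 1, 35.4% in mix 2, 93.9% in mix 3 and 90.9% in mix 4. Vials of the same RNA, which hold the same Sall4 transcripts, were thus estimated to carry nearly only the long or nearly only the short one. The share moved with the shift in GC content described below: exons 1 to 3 of NM_175303 have 59.1 to 60.7% GC and the last exon, which makes up most of NM_201396, has 46.2%. Whether GC content accounts for the split was not tested.

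**Figure D2:**
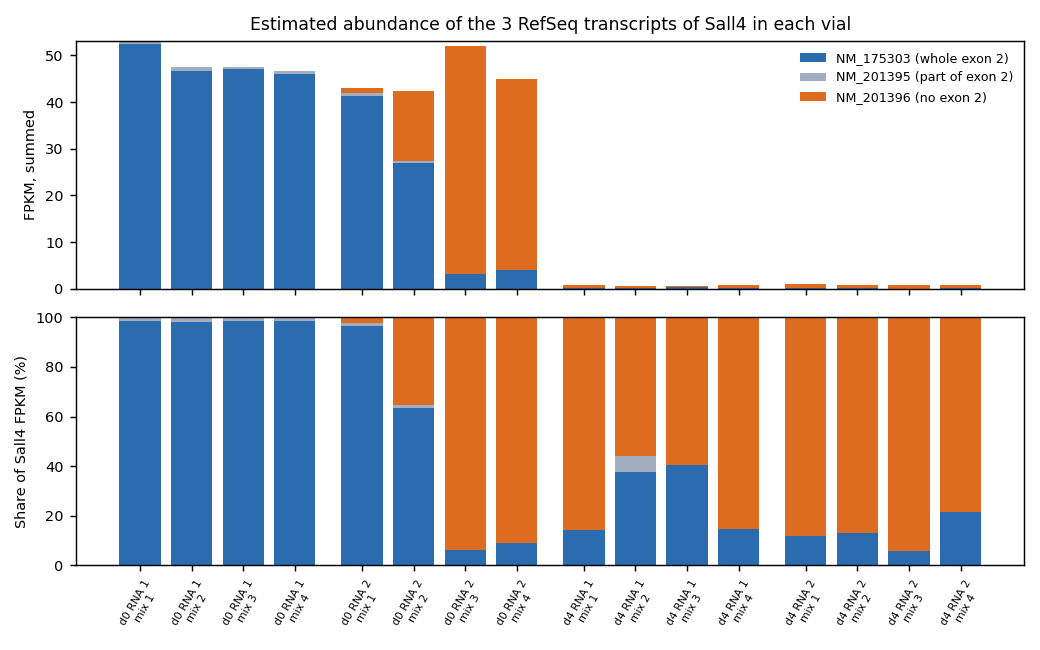
Estimated abundance of the 3 RefSeq transcripts of Sall4 in each of the 16 libraries, as stacked FPKM (upper panel) and as a share of the sum in percent (lower panel). The sum is between 42.4 and 53.2 FPKM in all vials of day 0, while the share of NM_201396 runs from 2.24 to 93.9% among the vials of RNA sample 2.

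At day 4, where the sum was below 1 FPKM, NM_201396 took 55.8 to 94.4% and NM_175303 5.58 to 40.6%. In the fit on single transcripts, NM_175303 fell by 6.95 on the log2 scale (SE 0.56, limma adjusted p = 0.0158) and NM_201395 by 2.43 (SE 0.44, adjusted p = 0.0425), while 8.67% of all transcripts were called lower. For NM_201396 the difference was -1.15 with a 95% interval from -9.63 to 7.32 (adjusted p = 0.784). Without the 2 vials the differences of NM_175303, NM_201395 and NM_201396 were -7.38, -2.83 and -0.30, and the last was again not called (limma adjusted p = 0.929). Without RNA sample 2 of day 0 it was 2.87, and without RNA sample 1 it was -5.18, so its direction rested on the RNA sample used. A change in Sall4 splicing between the days cannot be told apart from the difference between vials of 1 RNA.

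Fbxo15, an F-box protein of ubiquitin ligase complexes that served as an early reporter of pluripotency, lies on chromosome 18. It had 1.24 and 1.41 FPKM in the RNA samples of day 0 and 1.85 and 1.44 FPKM at day 4, and the libraries of the days overlapped. Its log2 difference was 0.28, with a 95% interval from -0.45 to 1.02 (limma adjusted p = 0.45), and 0.37 without the 2 vials. Transcripts of like GC content (within 1 point of 44.7%, n = 1338) had the same median difference of 0.28, and after the GC correction the difference of Fbxo15 was -0.01. The interval leaves out a drop as deep as the estimate for any of the 8 genes that fell. The interval of Dppa3, from -2.20 to -0.45, meets it, and no difference between genes was tested.

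Tcl1, a coactivator of the kinase Akt, was listed at 0 in most libraries. At day 0 each RNA sample had 1 vial above 0, with 0.108 and 0.0590 FPKM. At day 4, RNA sample 1 had vials at 0.255 and 0.0930 FPKM and RNA sample 2 was listed at 0 in all 4. Its difference was 0.18, with a 95% interval from -0.75 to 1.11 (limma adjusted p = 0.69), and 0.09 without the 2 vials. At these levels neither a drop nor its absence could be seen.

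**Figure D3:**
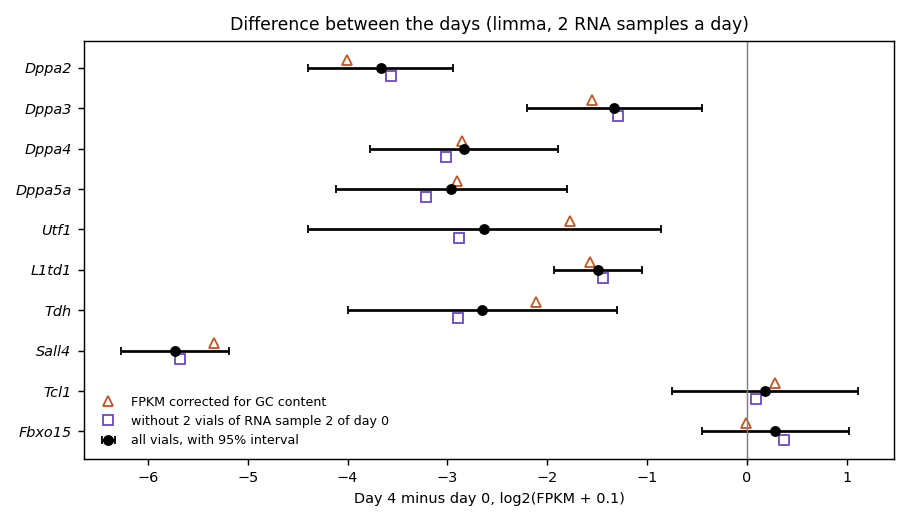
Difference between the days in log2(FPKM + 0.1) for the 10 genes. Black points with bars are the limma estimate and its 95% interval, triangles the estimate after GC correction and squares the estimate without the vials of mixes 3 and 4 of RNA sample 2 of day 0. All 3 estimates lie below 0 for 8 genes, from -1.33 for Dppa3 to -5.73 for Sall4 with all vials, and near 0 for Tcl1 and Fbxo15.

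The calls rest on few samples. An exact permutation test of 2 against 2 RNA samples cannot go below p = 0.333, and the limma tests draw on the spread of all genes. Without RNA sample 1 of day 0, 4 of the 10 genes were called lower (Dppa2, Utf1, L1td1 and Sall4), where 10.1% of all genes were, and without RNA sample 2 of day 0, 6 were, where 27.1% of all genes were. Without RNA sample 1 or without RNA sample 2 of day 4, limma called none of the 10 and no other gene. The differences of the 8 genes were negative in all of these fits. Without the 2 vials 8 of the 10 were called lower, where 33.6% of all genes were, and with the GC correction 8 were, where 24.4% of all genes were. Neither setting called any of the 10 higher with limma.

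Spike-ins and transcripts in general show how far GC content moved with the days and with the vials. For all transcripts with a mean of at least 1 FPKM, the median difference between the days was 0.70 at up to 40% GC, 0.07 between 45 and 50% and -1.75 above 60%. Between the mix 3 and the mix 1 vial of RNA sample 2 of day 0, the same medians were 1.11, 0.00 and -3.08. The corresponding vials of RNA sample 1 of day 0 gave -0.04, -0.03 and -0.22. Between the mix 2 and the mix 1 vial of RNA sample 2 of day 0, the medians were 0.15, 0.02 and -0.58. A trend of the same direction was thus present between the days and between vials of 1 RNA, and hardly in RNA sample 1.

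The spike-ins, of which equal amounts were added to the RNA of each day, followed it too. Their median difference between the days was 1.45 for those of up to 45% GC (n = 8), 0.30 between 50 and 55% (n = 12) and -0.79 above 55% (n = 15), of which 12 of 15 were lower at day 4, some of them by a difference that rounds to -0.00. Each spike-in was read in the mix that held most of it. Above 55% GC this was mix 3 for 5 spike-ins, whose values include the mix 3 vial of RNA sample 2 of day 0 and differed by -0.16 to 0.21. Spike-ins above 55% GC also differed between RNA samples 2 and 1 of day 0. The medians of sample 2 minus 1 were -1.05 in mix 1 (n = 8), -0.73 in mix 2 (n = 2) and -3.10 in mix 3 (n = 5). At up to 45% GC they were -0.16 (n = 3), -0.20 (n = 4) and 0.99 (n = 1). The spike-ins were added after the RNA had been extracted from the cells.

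The differences of the genes that fell can be set beside the medians of transcripts of their own GC content. Dppa2, with 43.9% GC, differed by -3.67 where its neighbours in GC content (n = 1311) had a median of 0.36. For Dppa3, with 45.3% GC, the values were -1.33 and 0.21, and for L1td1, with 47.8% GC, -1.49 and 0.08. The part of GC content in these differences was not tested.

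For Dppa4 (NM_028610, 49.0% GC) the difference was -2.81 beside 0.00 for its neighbours, for Dppa5a (49.4% GC) -2.96 beside -0.07, and for Tdh (53.3% GC) -2.65 beside -0.59. Between the mix 3 and mix 1 vials of RNA sample 2 of day 0, however, Dppa4 and Dppa5a differed by -0.94 and -1.33 where their neighbours had medians of -0.24 and -0.33. Tdh differed by -1.42 beside -1.20. Dppa4 and Dppa5a were thus lower in the mix 3 vial by more than transcripts of their GC content. What else set these vials apart was not tested.

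**Figure D4:**
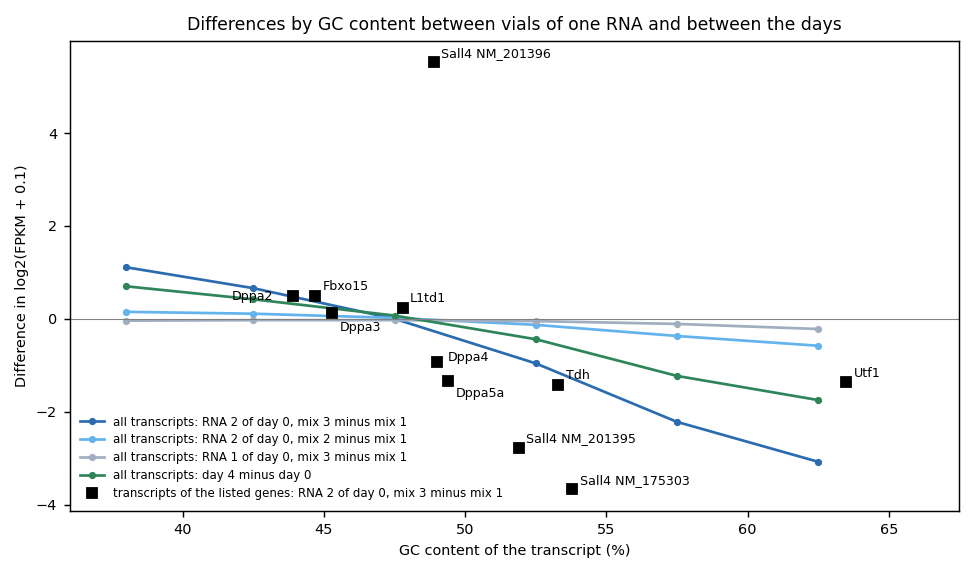
Differences in log2(FPKM + 0.1) against the GC content of the transcript in percent. Lines join the medians of all transcripts in 6 GC classes for pairs of vials and for the days, and squares are the leading transcript of each of the 10 genes except Tcl1, and all 3 of Sall4, for the mix 3 minus the mix 1 vial of RNA sample 2 of day 0. The line of these vials drops from 1.11 to -3.08, and the Sall4 transcripts NM_201396 (5.53) and NM_175303 (-3.67) lie furthest from it.

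Between the spike-in mixes no difference was expected for the 10 genes, since the mixes hold none of them. Of 60 comparisons (6 pairs of mixes for each gene), limma called 0 at day 0 and 0 at day 4, where 0.0141% and 0.0220% of all comparisons were called. At an unadjusted p of at most 0.05 there were 3 at day 0, all of Tcl1, and 0 at day 4. For each mix and day, the comparison sets 1 vial of each RNA sample against the same for another mix, so that differences between the RNA samples count as spread.

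The 8 genes fell beside most other genes of the pluripotent state. Of 10 core pluripotency transcription factors, 8 fell and none rose, with a median difference of -2.22. Pou5f1 went from 62.2 to 0.864 FPKM (-5.91), Prdm14, a factor that holds back differentiation, from 3.75 to 0.0828 FPKM (-4.40), Klf5 from 4.71 to 0.216 FPKM (-3.90) and Tbx3 from 19.3 to 3.90 FPKM (-2.28). Of 14 other transcripts associated with ES cells, 10 fell and none rose, with a median of -2.51. The deepest drops were those of Tdgf1, a coreceptor of Nodal, from 51.4 to 0.388 FPKM, of Lin28a, which blocks the maturation of let-7, from 143 to 1.32 FPKM, and of Trim71, a ubiquitin ligase and RNA binding protein, from 44.0 to 0.563 FPKM.

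**Figure D5:**
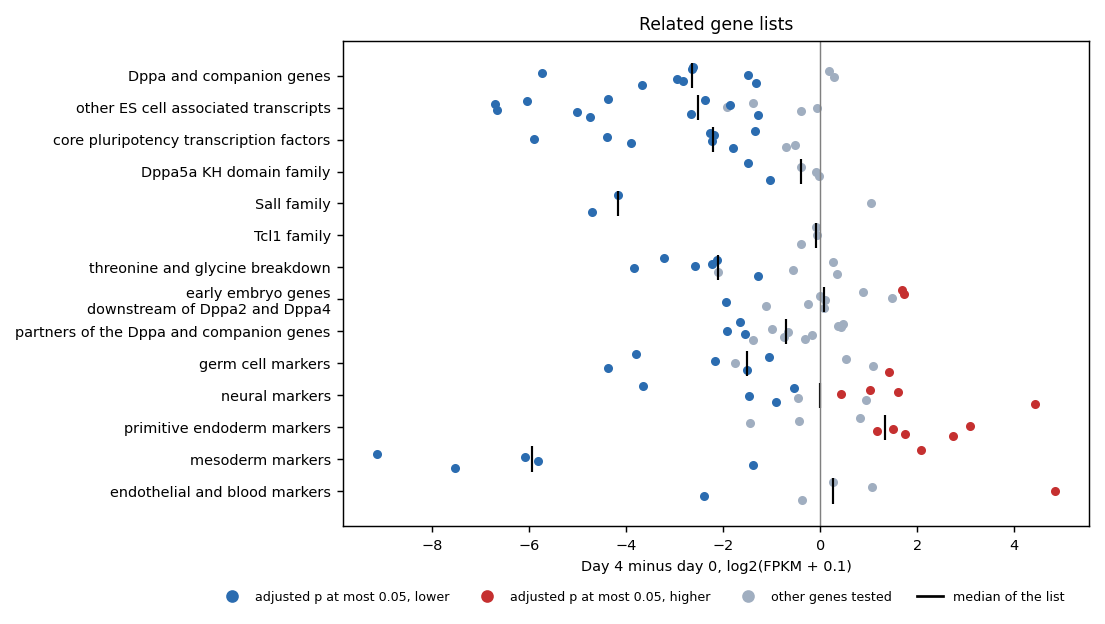
Difference between the days in log2(FPKM + 0.1) for each gene of the related lists (blue, called lower; red, called higher; grey, not called), with a black line at the median of a list. The medians run from -5.95 for mesoderm markers to 1.34 for primitive endoderm markers, and that of the Dppa and companion genes is -2.64.

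Around Tdh, genes of threonine and glycine breakdown and of the 1-carbon cycle they feed were tested. Of 10 tested, 6 fell, none rose and 4 did not pass, with a median of -2.11. Without the 2 vials 8 fell and 2 rose, and with the replicate as a block 8 fell and none rose. Gldc, the decarboxylase of the glycine cleavage system, went from 25.1 to 1.60 FPKM (-3.83) and Shmt2, the mitochondrial serine hydroxymethyltransferase, from 38.8 to 3.68 FPKM (-3.23). Mthfd1 and Mthfd2, which carry 1-carbon units on folate, fell as well (-2.59 and -2.23).

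The relatives of Sall4 split. Sall1 fell from 6.05 to 0.134 FPKM (-4.70) and Sall3 from 2.11 to 0.0181 FPKM (-4.17). Sall2 had 8.72 FPKM at day 0 and 17.9 FPKM at day 4, a difference of 1.05 that did not pass the test (limma adjusted p = 0.0566). It was called with the replicate as a block (adjusted p = 0.00355), without the 2 vials (0.93, adjusted p = 0.0141) and with the GC correction (1.71, adjusted p = 0.00333). Among the 5 KH domain relatives of Dppa5a, all below 1 FPKM, Ooep and Khdc1a fell by 1.49 and 1.03 and the other 3 did not pass. In the Tcl1 family 3 of 6 genes could be tested and none passed. Mtcp1 had the highest level there, 1.94 FPKM at day 0 and 1.45 FPKM at day 4.

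Of 12 genes whose products work with those of the 10 genes, 3 fell and none rose, with a median of -0.70. These counts depended on the setting: 8 fell and 3 rose without the 2 vials, 7 fell and none rose with the replicate as a block, and 5 fell and 2 rose with the GC correction. Lin28b, a relative of Lin28a, went from 45.4 to 11.8 FPKM (-1.92), Uhrf1, the partner of Dppa3, from 76.2 to 23.3 FPKM (-1.65) and Dnmt1, the maintenance methyltransferase that Uhrf1 recruits, from 67.2 to 22.0 FPKM (-1.56). Skp1, the adaptor that F-box proteins such as Fbxo15 bind, had 501 and 676 FPKM and did not pass (0.46, limma adjusted p = 0.248), but was called higher without the 2 vials (0.66, adjusted p = 0.0102).

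Dppa2 and Dppa4 are known to switch on Dux and the genes of the early embryo that follow it. Of 10 such genes, 1 fell and 2 rose, with a median of 0.08, and all were below 1 FPKM on both days. Zscan4c had 0.0855 FPKM at day 0 and 0.514 FPKM at day 4 (1.72, limma adjusted p = 0.0089), Zscan4f 0.166 and 0.773 FPKM (1.69, adjusted p = 0.0385) and Tcstv3 0.465 and 0.0462 FPKM (-1.94, adjusted p = 0.00907). The Zscan4 genes are near-identical copies, as are Tcstv1 and Tcstv3, and the estimation could divide reads between them, so values of single copies are uncertain. Usp17la did not pass (1.48, limma adjusted p = 0.0919), but was called with the replicate as a block (adjusted p = 0.000837) and without the 2 vials (adjusted p = 0.0487). With either of these settings 4 of the 10 genes rose.

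Markers of other cell types moved in several directions beside the 10 genes. Of 9 germ cell markers 5 fell, with Dnd1 (-4.38), Tfap2c (-3.79), Prdm1 (-2.18) and Ddx4 (-1.51) furthest, and 1 rose, Dazl (1.42), which is named after its value was seen. With the replicate as a block 2 of these markers rose, and without the 2 vials 3 did. Of 6 mesoderm markers 5 fell. T went from 67.0 to 0.0190 FPKM, Hand1 from 27.1 to 0.0406 FPKM and Mixl1 from 39.4 to 0.482 FPKM, and Mesp1 from 5.82 FPKM to being listed at 0, while Twist1, also named after its value was seen, rose by 2.07 and was not called with the GC correction (3.04, limma adjusted p = 0.0736). Of 8 primitive endoderm markers 5 rose and none fell, among them Gata6, from 6.36 to 54.4 FPKM, Afp (2.74), Dab2 (1.74) and Gata4, from 6.60 to 18.6 FPKM. Lama1 did not pass (-1.44, limma adjusted p = 0.0502), but fell without the 2 vials (-1.73, adjusted p = 0.00359). It also fell with the replicate as a block (adjusted p = 0.00396) and with the GC correction (adjusted p = 0.00799). Ttr did not pass (0.81, limma adjusted p = 0.0653), but rose with each of these settings. Foxa2 rose by 1.18 and was not called with the GC correction (1.74, limma adjusted p = 0.082). Lama1, Ttr and Foxa2 were named after their values were seen.

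Of 10 neural markers 4 rose and 4 fell. These counts depended on the setting: 4 rose and 2 fell with a pseudocount of 0.01. With a mean of at least 1 FPKM, where fewer genes are tested, 1 rose and 1 fell. Dcx rose from 0.0126 to 2.31 FPKM (4.42) and Onecut2 from 0.0151 to 0.252 FPKM (1.60). Tubb3 fell from 12.0 to 0.761 FPKM (-3.66) and Neurod1 from 0.304 to 0.0465 FPKM (-1.47). Of 5 endothelial and blood markers Hba-x rose by 4.85 and Gata1 fell by 2.40. Pecam1 and Hbb-bh1 did not pass, but Hbb-bh1 (1.07, limma adjusted p = 0.0564) was called with the replicate as a block (adjusted p = 0.00166), without the 2 vials (adjusted p = 0.0154) and with the GC correction (adjusted p = 0.0488). Over all these lists, 104 genes were tested, of which 47 fell and 14 rose. Without the 2 vials of RNA sample 2 of day 0, 27 rose. The part of the changing cell types in the drop of the 8 genes was not tested.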

How the data were processed

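Total RNA of R1 EBs was sequenced as 16 stranded, ribosomal RNA depleted, paired-end libraries. The authors aligned reads to RefSeq transcripts of mm10 with the spike-in transcripts, ran RSEM on them and deposited FPKM for each transcript after TMM scaling (factors of 0.928 to 1.13). The submitters' processing notes name TopHat2 2.0.10, RSEM 1.2.18 and Bowtie2 2.1.0. All 16 columns were assigned by sample title (0 without a sample). The deposited FPKM carry no fragment counts, so precision from depth was not estimated and no count model was used.

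FPKM were summed over the RefSeq transcripts of a gene and averaged over the 4 vials of an RNA sample. Which vials share an RNA is given by the study's supplementary tables and not by the labels. Genes were compared with limma 3.58.1 (lmFit, and eBayes with a trend) in R 4.3.3 on log2(FPKM + 0.1), with Benjamini-Hochberg adjustment over 20496 genes. Mixes were compared within a day over its 8 libraries. Spike-ins were left out of the fits. A symbol was found for 99.2% of the RefSeq transcripts and a GC content for 97.4%, from the GENCODE annotation of GRCm38. For the GC correction, 13893 transcripts were put in 20 GC bins and each library was scaled in every bin to the mean of the libraries, which can also remove biological differences linked to GC content.

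The biological replicates come from 2 repeats of the whole procedure, so the numbers pair the days. The difference of RNA sample 2 minus 1 correlated between the days with r = 0.768 over 11584 genes. All vials entered this correlation, those with the shift in GC content included, and the part of GC content in it was not tested. The block was an alternative, as the study names a replicate term for its regression of spike-in amounts but not for its tests of differential expression.

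The 10 genes and the lists were chosen with earlier results of these data known. All 10 are named, and of every list at most 4 genes, those with the largest difference among the called and then those with the highest level; 1 of these is not reported here. Dazl, Twist1, Lama1, Ttr and Foxa2 were named beyond this rule, after their values were seen. Alternatives were other pseudocounts, filters, scalings, vials, RNA samples, a replicate block and a GC correction. Leaving out the 2 vials, alone and with the GC correction, was added after the data were seen. The fits were tested on simulated data, where log2 differences of 1 were not recovered. With 200 genes changed, the fit without a block recovered 0% of differences of 2, and 100% of its calls were false. It recovered 76.5% of differences of 4, with 3.77% of calls false, and the fit with a block recovered none of them. With 6000 genes changed, the fit without a block recovered 83.5% of differences of 2 and 96.3% of differences of 4. Python 3.11.15, numpy 2.4.6, pandas 2.3.3 and matplotlib 3.10.9 were used.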

Additional observations from a re-analysis of the deposited data

Results flagged for a closer look

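In 3 of 26 groups of 8 libraries (each gene or Sall4 transcript at each day), 1 library lay far from the others by Dixon's criterion. Chance meets it in about 1 in 20 groups of normally distributed values. This rate does not apply to the 3 groups, in which most libraries were listed at 0. Utf1 had 0.0680 FPKM at day 4 in the mix 1 vial of RNA sample 2, where 5 of 8 libraries were listed at 0. Tcl1 had 0.255 FPKM at day 4 in the mix 1 vial of RNA sample 1, a library that the study names as an outlier for its high share of ribosomal RNA reads. The Sall4 transcript NM_201395 had 0.0380 FPKM at day 4 in the mix 2 vial of RNA sample 1 and was listed at 0 in the other 7 libraries. All 3 values lie near the end of the scale.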

How the results depend on the processing

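The differences of the 8 genes that fell were negative in every alternative run. Of 24 alternatives, Sall4 was called lower in 22, Dppa2 in 21, L1td1 in 20, Dppa4 in 19, Dppa5a in 18, Tdh in 17 and Dppa3 in 10, and Utf1 in 13 of 23. The count of genes of the set called lower, 8 as reported, was 5 with a pseudocount of 1, 5 with the median of the vials, 1 with the vials of mix 3 alone and 2 with those of mix 4 alone, and 0 to 6 when an RNA sample was left out. Tcl1 reversed with the vials of mix 2 alone (-0.86, limma adjusted p = 0.0459), where both libraries of day 0 are above 0 and both of day 4 are listed at 0. The cause was not tested for the other changes.

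Counts over all genes moved more. The 2972 genes called lower became 1721 with the median of the vials, 4998 with the GC correction, 6675 with the vials of mix 1 alone, 188 with mix 3, 367 with mix 4, 6880 without the 2 vials, 6154 without them and with the GC correction, 4580 with all libraries and the RNA sample as random block, and 0 to 5552 with an RNA sample left out. The 3281 called higher became 2092 with a mean of at least 1 FPKM, where fewer genes are tested, 5664 with the GC correction, 548 with mix 3, 1044 with mix 4, 5552 without the 2 vials, 6923 without them and with the GC correction, and 0 to 3670 with an RNA sample left out. With the replicate block 5961 genes were called lower and 4615 higher, and with block and GC correction 5589 and 6098; the block changed no call among the 10 genes.

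Of the related lists, the 47 genes called lower became 6 with mix 3, 14 with mix 4 and 0 to 55 with an RNA sample left out. The 14 called higher became 7 with a mean of at least 1 FPKM, 8 with the median of the vials, 24 with the replicate block and GC correction, 2 with mix 3, 5 with mix 4, 27 without the 2 vials, also with the GC correction, 22 with all libraries, and 0 to 10 with an RNA sample left out. Without an RNA sample of day 4, 4935 (RNA sample 1) and 4716 genes (RNA sample 2) had an unadjusted p of at most 0.05 and none passed the adjustment. Where an RNA sample is left out, the lone sample of its day is assumed to vary like those of the other day. The study lists the reads of each library, but no limit from depth was worked out from them.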
